A study of Mus musculus with 14 samples.

Results

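The nuclear-encoded genes of the respiratory chain and of ATP synthase were described across 4 groups of mouse ventricles. Members were all rows of the gene table whose symbol begins with Nduf, Uqcr, Cox4, Cox5, Cox6, Cox7, Cox8 or Atp5, or is Sdha, Sdhb, Sdhc, Sdhd, Cyc1 or Cycs. This gave 96 of 24972 genes, and the rule itself uses names and no measured value. By role they comprise 7 core subunits of complex I, 30 genes counted with its supernumerary subunits (29 coding genes and Ndufb4c, annotated as a processed pseudogene), 8 complex I assembly factors, 4 subunits of complex II, 10 genes of complex III with cytochrome c, 20 of complex IV, 16 of complex V, and Atp5s, which is not an ATP synthase subunit. Ndufa4 and its paralog Ndufa4l2 were placed with complex IV, where the Ndufa4 protein resides.

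All animals were male C57BL/6N mice that had TAC (trans-aortic constriction, a narrowing of the aorta that loads the left ventricle with pressure) or sham surgery when 9 to 10 weeks old. Heart ultrasound after 2 weeks kept 30 TAC mice with ejection fractions of 40 to 60% and 10 sham mice with normal function, and each mouse then received AAV2/9, an adeno-associated virus that infects heart muscle, by tail vein at 1e12 viral genomes in 100 ul. The virus carried JP2NT, an N-terminal fragment of the protein junctophilin-2, or GFP as the control protein, so every group carries a virus and no group is free of it. Ventricles were collected 8 weeks after surgery, giving 4 libraries of TAC+GFP, 3 of Sham+GFP, 4 of TAC+JP2NT and 3 of Sham+JP2NT. The labels do not say whether libraries are separate mice, so p-values measure the spread between these samples, which may be technical in part. Replicates 1 and 2 of Sham+JP2NT were as alike as sampling noise nearly allows and entered as 1 sample, so that group has n = 2. Estimated depth was 8650188 to 14460617 reads per library. Among the TAC+JP2NT libraries replicate 4 differed most from the others over all genes. Its mean over the members lay nearest to the shams, with that of replicate 1 close to it. The total counts of members lower and higher under JP2NT are also given without replicate 4. Values are given as the deposited scaled gene counts after 1 joint rescaling of all samples (called rescaled values).

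The respiratory chain carries electrons from NADH, through complex I, and from succinate, through complex II, to coenzyme Q, then through complex III and cytochrome c to complex IV, which reduces oxygen. Complexes I, III and IV pump protons across the inner mitochondrial membrane, and complex V, the ATP synthase, uses the returning protons to make ATP. The heart is among the tissues richest in these complexes, and several subunits exist there as a muscle form and a form found in most tissues. The mitochondrially encoded subunits were not analysed here. In tissue RNA, fewer cells of a type and less RNA per cell cannot be told apart.

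Promoter windows (250 bases before to 50 after the start of transcription) in RefSeq's tables, build GRCm38.p6, were available for 74 of the 94 tested members. NRF1 and the GABP factor are transcription factors known for respiratory chain promoters, as is ERR, the estrogen-related receptor. The 5 windows below include those of Uqcrc1 and Sdha, the genes with the largest falls that passed the test. Ndufaf4 is the assembly factor that passed the test between vectors after TAC. Cox7a1 is the muscle form set against its paralog Cox7a2 further on. The complex II anchor Sdhd is shown because its window holds matches to 3 motifs, so the 5 do not represent the members. Capitals mark matches on either strand to NRF1 (GCGC, any base, then TGCGC), GABP (CCGGAAG), ERR (TCAAGGTCA), YY1 (AAGATGGCG) and MEF2 (CTA and TAG with 4 bases of any kind between).
Uqcrc1: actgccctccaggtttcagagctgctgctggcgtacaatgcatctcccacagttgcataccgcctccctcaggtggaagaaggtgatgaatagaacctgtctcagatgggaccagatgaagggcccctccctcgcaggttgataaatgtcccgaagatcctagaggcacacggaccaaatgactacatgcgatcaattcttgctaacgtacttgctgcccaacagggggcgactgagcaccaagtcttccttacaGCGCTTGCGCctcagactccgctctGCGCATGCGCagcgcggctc
Sdha: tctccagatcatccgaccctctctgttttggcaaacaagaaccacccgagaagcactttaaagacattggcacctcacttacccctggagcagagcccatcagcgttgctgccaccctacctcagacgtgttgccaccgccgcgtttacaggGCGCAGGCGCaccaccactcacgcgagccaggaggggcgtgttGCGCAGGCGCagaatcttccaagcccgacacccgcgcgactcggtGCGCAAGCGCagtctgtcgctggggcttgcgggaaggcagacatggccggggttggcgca
Sdhd: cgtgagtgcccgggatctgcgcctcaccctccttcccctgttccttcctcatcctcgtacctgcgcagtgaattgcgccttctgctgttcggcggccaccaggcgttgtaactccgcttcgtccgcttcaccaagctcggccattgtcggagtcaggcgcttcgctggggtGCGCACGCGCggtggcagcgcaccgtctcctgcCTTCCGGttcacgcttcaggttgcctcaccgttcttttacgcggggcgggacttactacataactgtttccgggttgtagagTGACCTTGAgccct
Ndufaf4: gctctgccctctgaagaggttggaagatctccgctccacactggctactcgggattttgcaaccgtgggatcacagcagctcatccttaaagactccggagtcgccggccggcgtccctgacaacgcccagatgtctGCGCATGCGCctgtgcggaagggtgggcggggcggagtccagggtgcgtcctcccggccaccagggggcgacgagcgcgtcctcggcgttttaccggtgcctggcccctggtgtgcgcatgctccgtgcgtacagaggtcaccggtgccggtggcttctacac
Cox7a1: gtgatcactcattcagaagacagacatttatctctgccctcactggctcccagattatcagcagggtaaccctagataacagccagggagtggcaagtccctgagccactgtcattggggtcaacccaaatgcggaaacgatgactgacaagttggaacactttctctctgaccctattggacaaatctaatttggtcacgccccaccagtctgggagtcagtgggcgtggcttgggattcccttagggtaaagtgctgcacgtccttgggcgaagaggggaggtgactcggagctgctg
They lie at chr9:108936398-108936697 (plus strand), chr13:74350191-74350490 (minus), chr9:50603800-50604099 (minus), chr4:24897833-24898132 (plus) and chr7:30183921-30184220 (plus), in the order printed. Uqcrc1 holds 2 NRF1 matches, Sdha 3, Ndufaf4 1, and Sdhd 1 each for NRF1, GABP and ERR, while none of the 5 motifs is in the Cox7a1 window. Among the 74 members the NRF1 letters were found in 25.7%, against 11.2% of the 10373 tested genes with a window. The GABP letters were in 24.3% of members and 19.4% of all, the YY1 letters in 10.8% and 3.43%, the ERR letters in 2.7% and 0.328%, and the MEF2 letters in 2.7% and 3.89%. Of 36 members with a window that fell in TAC+GFP hearts, 33.3% held the NRF1 letters, against 18.4% of the other 38; the GABP letters went the other way, at 16.7% and 31.6%. These letter matches are a description of the windows and were not tested against the expression values.

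Together the members made up 5.52 to 6.33% of the total in TAC+GFP libraries, against 6.69 to 6.77% in Sham+GFP libraries. They made up 5.47 to 6.64% in TAC+JP2NT libraries, against 6.73 to 6.81% in the 2 Sham+JP2NT samples. All TAC libraries were therefore below all sham libraries. Per kilobase of mRNA, the members with the highest level in Sham+GFP hearts were Atp5b at 47991, Atp5g1 at 34999, Cox4i1 at 34068 and Atp5a1 at 31201, all rescaled values per kilobase. The filter on low values (at least 10 in at least 3 samples) was passed by 94 members. Cox7b2, whose values ran from 0 to 3.92, and Cox8c, listed at 0 in every library, did not pass it. The coordinates of 27 members overlap those of another coding gene, mostly on the opposite strand, and their values are uncertain. Cox4i1, Ndufa13, Ndufb2, Ndufb8, Ndufb9 and Ndufb4c overlap a coding gene on the same strand. The values of Ndufb4 and the pseudogene Ndufb4c are also uncertain, as their sequences were not compared. Ndufb4c was called in none of the comparisons.

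In TAC+GFP against Sham+GFP hearts 45 of 94 members fell and 2 rose (limma-trend with Benjamini-Hochberg adjustment over 13212 genes, adjusted p under 0.05), where 24.8% of all tested genes fell and 23.3% rose. In 47 of 94 members every TAC+GFP value was below every Sham+GFP value, against 27.7% of all tested genes. In 6 members every value was above, against 25.4% of all tested genes. The share of members that passed the test was 47.9% lower and 2.13% higher, with a median log2 change of -0.24 over members and of 0.00 over all tested genes. The count of higher members rested on single libraries: it was 0 without Sham+GFP replicate 2, 1 without Sham+GFP replicate 1 or 3 or TAC+GFP replicate 3, and 4 without TAC+JP2NT replicate 2 or 4, which share the estimate of spread. Differences between complexes were not tested. The falls took in 6 of 7 complex I core subunits, 15 of 30 supernumerary ones, 3 of 8 assembly factors, 3 of 4 complex II genes, 6 of 10 of complex III with cytochrome c and 10 of 16 of complex V, but 2 of 18 tested members of complex IV. Median log2 changes were -0.37, -0.19, -0.17, -0.43, -0.25, -0.26 and -0.09 in the same order.

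**Figure D1:**
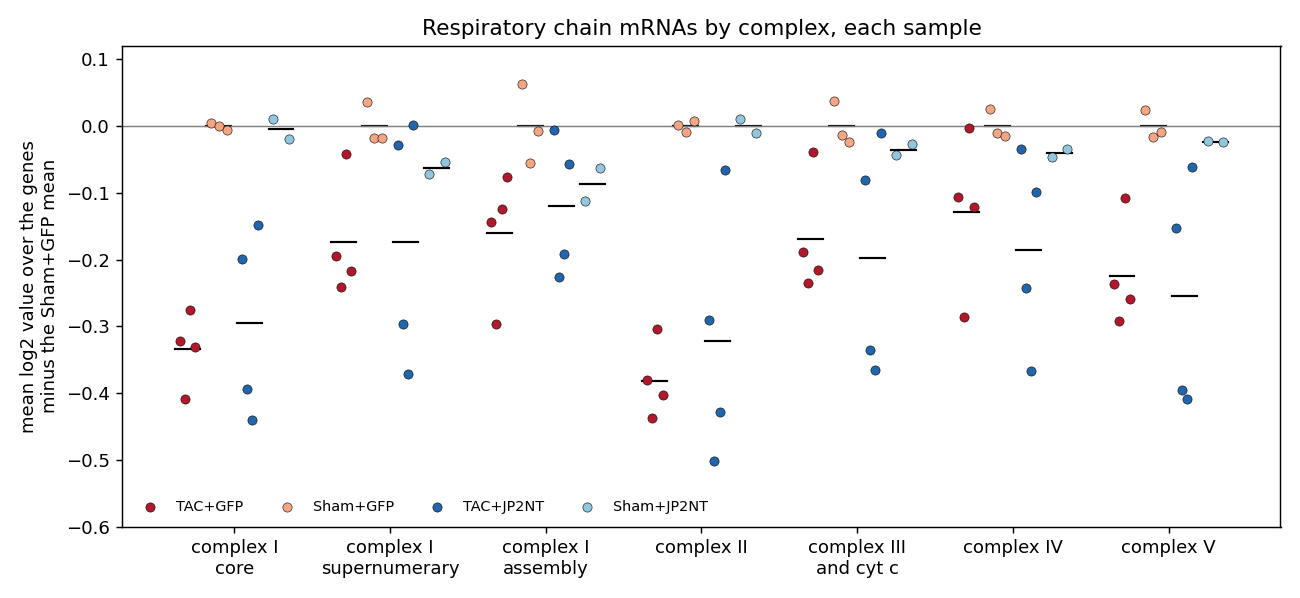
Mean log2 value over the tested genes of each complex in every sample, minus the Sham+GFP mean (y axis, log2 units), with 1 point per sample and a bar at each group mean. For complex I core the 4 TAC+GFP samples lie between -0.41 and -0.28 and the 4 TAC+JP2NT samples between -0.44 and -0.15, with all shams between -0.02 and 0.01, whereas for complex IV the TAC+GFP samples run from -0.29 to 0.00.

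The mean over all 94 members, relative to the Sham+GFP mean, was -0.20, -0.28, -0.08 and -0.21 on the log2 scale in TAC+GFP replicates 1 to 4, against -0.02 to 0.03 in Sham+GFP samples. It was -0.08, -0.32, -0.36 and -0.05 in TAC+JP2NT replicates 1 to 4, against -0.05 and -0.04 in Sham+JP2NT samples. TAC+GFP replicate 3 and TAC+JP2NT replicates 1 and 4 were thus the TAC libraries nearest to the shams. Within TAC+JP2NT the libraries fell into a low and a high pair, and that spread was wider than the one within TAC+GFP.

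Gene coordinates are those of the GENCODE annotation of mm10. Among core subunits of complex I, Ndufs1 (chr1:63143596-63176833), the large iron-sulfur subunit of the NADH-oxidizing arm, had 6784, 6563, 7021 and 7323 in TAC+GFP hearts, against 8817, 8556 and 9169 in Sham+GFP hearts. It had 7332, 6918, 7261 and 8539 in TAC+JP2NT hearts, against 9371 and 9156 in Sham+JP2NT hearts. The ranges did not overlap in either pair, and the log2 change was -0.35 ± 0.07 (SE, adjusted p = 0.00108, limma) under GFP and -0.31 ± 0.08 (adjusted p = 0.0117) under JP2NT. Ndufv1, which binds NADH and the flavin, fell by 0.35 on the log2 scale under GFP and by 0.48 under JP2NT. Ndufv2 was the core subunit without a call, at 6692, 6265, 7661 and 6459 in TAC+GFP hearts, against 7374, 6687 and 7027 in Sham+GFP hearts, and these ranges overlapped.

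Supernumerary subunits surround the core and stabilize complex I. Their log2 changes in TAC+GFP hearts spread from -0.53 to 0.22. Ndufv3 had 2761, 2627, 2820 and 2703 in TAC+GFP hearts, against 4124, 3854 and 3820 in Sham+GFP hearts, a fall of 0.53 ± 0.08 (log2, SE, limma adjusted p = 9.4e-05). Ndufa8 had 3856, 3512, 3983 and 3809 in TAC+GFP hearts, against 5647, 5459 and 5187 in Sham+GFP hearts, a fall of 0.52 ± 0.07 (limma adjusted p = 5.54e-05). For both the groups were apart in every sample. Under JP2NT the largest fall of the group was that of Ndufa13, at 3788, 3837, 3516 and 4236 in TAC+JP2NT hearts, against 5396 and 5380 in Sham+JP2NT hearts (log2 change -0.49 ± 0.08, limma adjusted p = 0.000413). The supernumerary members with values above 0 on the log2 scale, such as Ndufa7 at 0.22 and Ndufa2 at 0.21 under GFP, did not pass the test.

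The assembly factors build complex I and are not part of the finished enzyme. Ndufaf4 (chr4:24898083-24905001), which acts on an early intermediate, had 448, 388, 521 and 525 in TAC+GFP hearts, against 772, 689 and 665 in Sham+GFP hearts. It had 618, 632, 565 and 658 in TAC+JP2NT hearts, against 627 and 614 in Sham+JP2NT hearts. Every TAC+GFP value was below every value of the other 3 groups. The log2 change was -0.60 ± 0.10 under GFP (limma adjusted p = 0.00023) and -0.01 ± 0.11 under JP2NT (adjusted p = 0.968). Its partner Ndufaf3 fell in both, by 0.39 and 0.40, and Ndufaf1, of the membrane arm assembly complex, fell by 0.36 under GFP and was at -0.11 under JP2NT without a call. Ndufaf2, a late assembly factor, went the other way, at 192, 201, 230 and 216 in TAC+GFP hearts, against 152, 150 and 178 in Sham+GFP hearts. It rose by 0.39 under GFP (limma adjusted p = 0.0167) and by 0.38 under JP2NT (adjusted p = 0.0466), and its call was lost in 3 and in 13 of 25 alternative settings. Under GFP these included the omission of Sham+GFP replicate 1 or 2. Under JP2NT they included the omission of Sham+JP2NT replicate 1 or 3, TAC+JP2NT replicate 1 or 3, Sham+GFP replicate 1 or 2, or TAC+GFP replicate 1, 2 or 4 (limma adjusted p 0.0525 to 0.136).

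Complex II oxidizes succinate and is the link to the citric acid cycle. Its flavoprotein Sdha (chr13:74322254-74350280) had 13488, 12990, 13666 and 13493 in TAC+GFP hearts, against 20548, 20952 and 21762 in Sham+GFP hearts. It had 13389, 13269, 14611 and 16855 in TAC+JP2NT hearts, against 22679 and 21193 in Sham+JP2NT hearts. Both pairs were far apart, and Sdha was 1.57-fold lower under GFP (log2 change -0.65 ± 0.08, limma adjusted p = 1.77e-05) and 1.52-fold lower under JP2NT (adjusted p = 0.000351). The membrane anchor Sdhc was 1.5-fold and 1.46-fold lower, and the other anchor, Sdhd, fell by 0.26 under GFP (limma adjusted p = 0.011) and was at -0.17 under JP2NT without a call. The iron-sulfur subunit Sdhb had 14645, 13785, 16655 and 14335 in TAC+GFP hearts, against 15090, 14992 and 15078 in Sham+GFP hearts. Its ranges overlapped, and its log2 change was -0.02 with a 95% interval from -0.33 to 0.28.

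Complex III passes electrons from coenzyme Q to cytochrome c. Uqcrc1 (chr9:108936633-108949623), a core protein that faces the matrix, had 15093, 13220, 13065 and 14026 in TAC+GFP hearts, against 22069, 22941 and 22110 in Sham+GFP hearts. It had 13912, 13621, 13354 and 15934 in TAC+JP2NT hearts, against 22912 and 22219 in Sham+JP2NT hearts. The groups were well apart under both vectors, with a 1.62-fold fall under GFP (log2 change -0.69 ± 0.08, limma adjusted p = 6.6e-06) and a 1.59-fold fall under JP2NT (adjusted p = 0.000124). The electron carriers Uqcrfs1, the Rieske iron-sulfur protein, and Cyc1, cytochrome c1, fell by 0.42 and 0.41 on the log2 scale under GFP and by 0.29 and 0.41 under JP2NT. Cycs, the soluble carrier cytochrome c, had 9933, 10708, 11828 and 9537 in TAC+GFP hearts, against 13039, 11906 and 12047 in Sham+GFP hearts. Its fall of 0.24 (limma adjusted p = 0.0362) was lost in 11 of 25 alternative settings, among them the omission of any 1 Sham+GFP library or of TAC+GFP replicate 1, 2 or 4 (limma adjusted p from 0.00991 to 0.139 over the 25). The small subunit Uqcr10 had higher values in each of the TAC+GFP samples than in the shams, with a log2 difference of 0.37, and missed the threshold (limma adjusted p = 0.0549).

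Complex IV passes electrons to oxygen. In TAC+GFP hearts 2 of its 18 tested members fell and 1 rose, and 4 had every TAC+GFP value below every Sham+GFP value, where 27.7% of all tested genes did. More of its members fell in a setting with the mRNA length trend of each library removed, as given further on. Cox5a had 7050, 6618, 7325 and 7086 in TAC+GFP hearts, against 8998, 8440 and 9076 in Sham+GFP hearts, a fall of 0.33 ± 0.06 (log2, SE, limma adjusted p = 0.000272). Cox6a2, the heart and muscle form of subunit 6a, fell by 0.30 under GFP (limma adjusted p = 0.0159) and by 0.43 under JP2NT (adjusted p = 0.00701). The first call was lost without Sham+GFP replicate 2 (limma adjusted p = 0.069). Cox4i2, the second form of subunit 4, was at -0.37 under GFP and missed the threshold (limma adjusted p = 0.0556), but passed it in 9 of 25 alternative settings, 4 of which left out Sham+GFP replicate 3, TAC+GFP replicate 1 or TAC+JP2NT replicate 2 or 3. Cox6b1, a subunit on the outer side, was at -0.16 and -0.20 under GFP and JP2NT without a call, and passed the threshold in 5 settings under each vector, without TAC+JP2NT replicate 4 in both. Cox4i1, the abundant form of subunit 4, had 23839, 22232, 27014 and 22633 in TAC+GFP hearts, against 25349, 25405 and 25387 in Sham+GFP hearts, and these ranges overlapped. Its log2 change was -0.09 with a 95% interval from -0.34 to 0.16. Cox7a2l had 4337, 4360, 5219 and 4647 in TAC+GFP hearts, against 4058, 3835 and 3829 in Sham+GFP hearts. It rose by 0.24 (limma adjusted p = 0.0265), and the call was lost in 4 of 25 alternative settings, 3 of which left out Sham+GFP replicate 2 or 3 or TAC+GFP replicate 3 (adjusted p 0.0829, 0.0819 and 0.0718). In TAC+JP2NT hearts Cox7a2l had 4725, 3848, 3782 and 3813, against 3721 and 3738 in Sham+JP2NT hearts, without a call. Without TAC+JP2NT replicate 1, the TAC+JP2NT over TAC+GFP log2 change of Cox7a2l was -0.28, past the threshold (limma adjusted p = 0.0369). Cox6b2, a form known from testis, had low values, at 3.5 to 17.9 in TAC+GFP and 12.4 to 19.3 in Sham+GFP hearts.

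Complex V makes ATP at its F1 head, whose alpha and beta subunits are Atp5a1 and Atp5b. Atp5a1 had 51074, 49215, 51980 and 50147 in TAC+GFP hearts, against 76751, 76569 and 77970 in Sham+GFP hearts. In TAC+JP2NT hearts it had 48450, 47425, 50357 and 57438, against 77029 and 76165 in Sham+JP2NT hearts. TAC+JP2NT replicate 4 was the highest of the TAC samples and still below every sham sample, with a 1.52-fold fall under GFP (log2 change -0.61 ± 0.08, limma adjusted p = 3.88e-05) and a 1.51-fold fall under JP2NT (adjusted p = 0.000429). Atp5b fell by 0.49 and 0.51 on the log2 scale and Atp5d, of the central stalk, by 0.45 and 0.52. The ring subunit c is encoded by Atp5g1, Atp5g2 and Atp5g3, which give the same mature protein, and all 3 fell under both vectors, Atp5g1 the most at 0.57 and 0.49. Atp5l, a small membrane subunit, had 9615, 10019, 13133 and 9566 in TAC+GFP hearts, against 8579, 8128 and 8519 in Sham+GFP hearts, a difference of 0.32 that missed the threshold (limma adjusted p = 0.0801). Atp5s was at -0.11 and was not called.

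**Figure D2:**
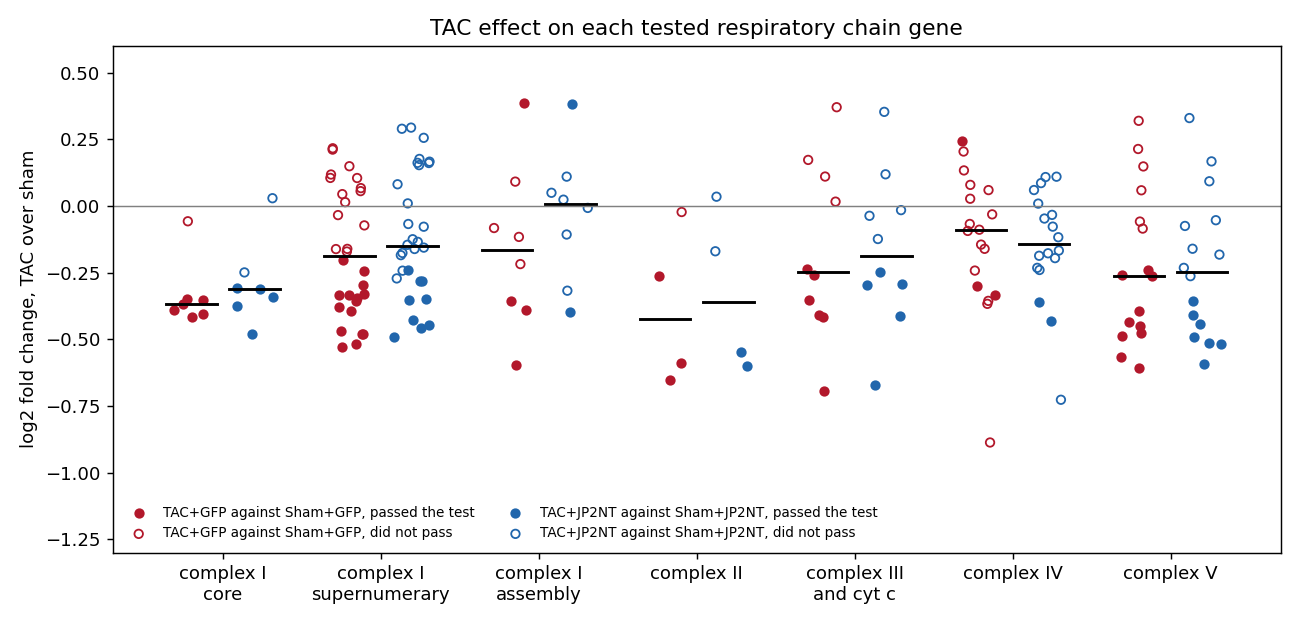
Log2 fold change of TAC over sham for each tested member (y axis), by complex, under GFP (red) and under JP2NT (blue), with filled points for genes that passed the test and a bar at each median. In complex I core all points except those of Ndufv2 lie between -0.48 and -0.25, whereas complex IV medians are -0.09 and -0.14.

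Under JP2NT, TAC against sham gave 31 lower members and 1 higher (33% and 1.06% of 94), where 15.8% of all tested genes fell and 16.1% rose. In 41 of 94 members every TAC+JP2NT value was below every Sham+JP2NT value, against 25.2% of all tested genes. In 3 members every value was above, against 24.4% of all tested genes. The median log2 change was -0.17 over members. The falls comprised 5 of 7 core and 9 of 30 supernumerary subunits of complex I, 1 of 8 assembly factors, 2 of 4 complex II genes, 5 of 10 of complex III with cytochrome c, 2 of 18 of complex IV and 7 of 16 of complex V. All 31 were also lower under GFP (68.9% of the GFP list and 100% of the JP2NT list), and 82 of 94 members had the same sign under both vectors. The TAC effects under the 2 vectors, which share no libraries, had a Pearson r of 0.895 and a Spearman rho of 0.882 across the 94 members; the points share mRNA length and the joint rescaling. The test of the difference between the TAC effects, the interaction, called 0 members (0.0378% of all tested genes were called in each direction), with 2 higher and 0 lower at an unadjusted p under 0.05 in limma. Ndufaf4 came closest, with an interaction of 0.59 ± 0.15 (95% interval 0.27 to 0.91, limma adjusted p = 0.156). The count of falls depended on single libraries: it was 18 without Sham+JP2NT replicate 3, which leaves 1 sample in that group, and 41 without TAC+JP2NT replicate 4, where 6.97% and 18.9% of all tested genes were lower. Among the named genes, the falls of Ndufs1, Ndufa8, Ndufaf3, Uqcrfs1 and Cox6a2 under JP2NT did not pass the test without Sham+JP2NT replicate 3 (limma adjusted p 0.0622 to 0.0796). The count of higher members was 1 without replicate 4 as well.

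The direct comparison of vectors after TAC showed 1 member higher in TAC+JP2NT than in TAC+GFP hearts and 0 lower, where 2.75% of all tested genes were higher and 3.28% lower. Groups did not overlap for 1 member in each direction, where 5.29% of all tested genes were lower and 5.4% higher in every sample. The median log2 difference was 0.00, and 4 members were lower and 1 was higher at an unadjusted p under 0.05. The higher member was Ndufaf4, at 1.32-fold (log2 0.40 ± 0.09, limma adjusted p = 0.0222), with each TAC+JP2NT value above each TAC+GFP value. This comparison shares the TAC+GFP libraries with the one between TAC+GFP and Sham+GFP. That call was lost in 6 of 25 alternative settings, among them the omission of TAC+GFP replicate 1, TAC+GFP replicate 2 or TAC+JP2NT replicate 2, with adjusted p from 0.0116 to 0.118 over the 25. For the catalytic and redox subunits the 95% intervals of the TAC+JP2NT minus TAC+GFP difference included -0.11 to 0.19 for Uqcrc1, -0.05 to 0.27 for Sdha, -0.16 to 0.17 for Atp5a1 and -0.03 to 0.26 for Ndufs1, all on the log2 scale. They were wider for Atp5b, at -0.19 to 0.23, Cox4i1, at -0.30 to 0.17, and Sdhb, at -0.23 to 0.34. Among sham hearts 0 members were called between Sham+JP2NT and Sham+GFP (0% of all tested genes were called), with 2 lower and 0 higher at an unadjusted p under 0.05 in limma. Both Sham+JP2NT samples were below all 3 Sham+GFP samples for 31 of 94 members, against 16.6% of all tested genes. They were above all 3 for 4 members, against 13.3% of all tested genes. The median log2 difference was -0.04 over members.

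Paralogous subunits can be compared within a library, where the scaling between libraries drops out. The Cox7a2 to Cox7a1 ratio sets the form found in most tissues against the muscle form, which lies at chr7:30184144-30186078. It was 0.676, 0.746, 0.597 and 0.684 in TAC+GFP hearts, against 0.500, 0.507 and 0.508 in Sham+GFP hearts. It was 0.421, 0.530, 0.539 and 0.574 in TAC+JP2NT hearts, against 0.500 and 0.495 in Sham+JP2NT hearts. All TAC+GFP values were above those of the other groups, TAC+JP2NT included, by 0.42 on the log2 scale over Sham+GFP, and TAC+JP2NT was below TAC+GFP by 0.39 (exact permutation p = 0.0286 for each, two-sided, the smallest p that either comparison can give). TAC+JP2NT and Sham+JP2NT overlapped. The level of Cox7a1 itself was 6506, 5895, 9376 and 6498 in TAC+GFP hearts, against 9169, 8712 and 8823 in Sham+GFP hearts, and the level of Cox7a2 was 4396, 4396, 5601 and 4445 in TAC+GFP hearts, against 4587, 4417 and 4482 in Sham+GFP hearts. Neither level passed the test over all genes, though Cox7a1 did without TAC+GFP replicate 3 (log2 change -0.50, limma adjusted p = 0.0153).

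The Cox6a1 to Cox6a2 ratio sets the liver form against the heart form. It was 0.0595, 0.0556, 0.0588 and 0.0579 in TAC+GFP hearts, against 0.0502, 0.0470 and 0.0473 in Sham+GFP hearts. It was 0.0538, 0.0556, 0.0614 and 0.0532 in TAC+JP2NT hearts, against 0.0383 and 0.0398 in Sham+JP2NT hearts. The TAC values were higher without overlap under both vectors, by 0.27 (exact permutation p = 0.0286) and by 0.52 on the log2 scale (exact permutation p = 0.0667, the smallest p that 4 against 2 samples allow). Sham+JP2NT was itself below Sham+GFP by 0.30 without overlap (exact permutation p = 0.1, the smallest p that 2 against 3 samples allow). TAC+JP2NT and TAC+GFP overlapped. The ratio of Atp5g1 to Atp5g3 was 0.17 lower on the log2 scale in TAC+GFP than in Sham+GFP hearts, also without overlap (exact permutation p = 0.0286). Of 32 such tests over 8 pairs, 4 had an unadjusted p under 0.05 and 0 passed the Benjamini-Hochberg adjustment, with a smallest adjusted p of 0.229. With so few samples no ratio could have passed that adjustment over 32 tests, so it decides nothing about these ratios. The pairs Cox4i2 to Cox4i1, Cox6b2 to Cox6b1, Cox8a to Cox8b, Ndufa4l2 to Ndufa4 and Atp5g2 to Atp5g3 gave unadjusted p from 0.1 to 0.933 over the 4 comparisons.

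**Figure D3:**
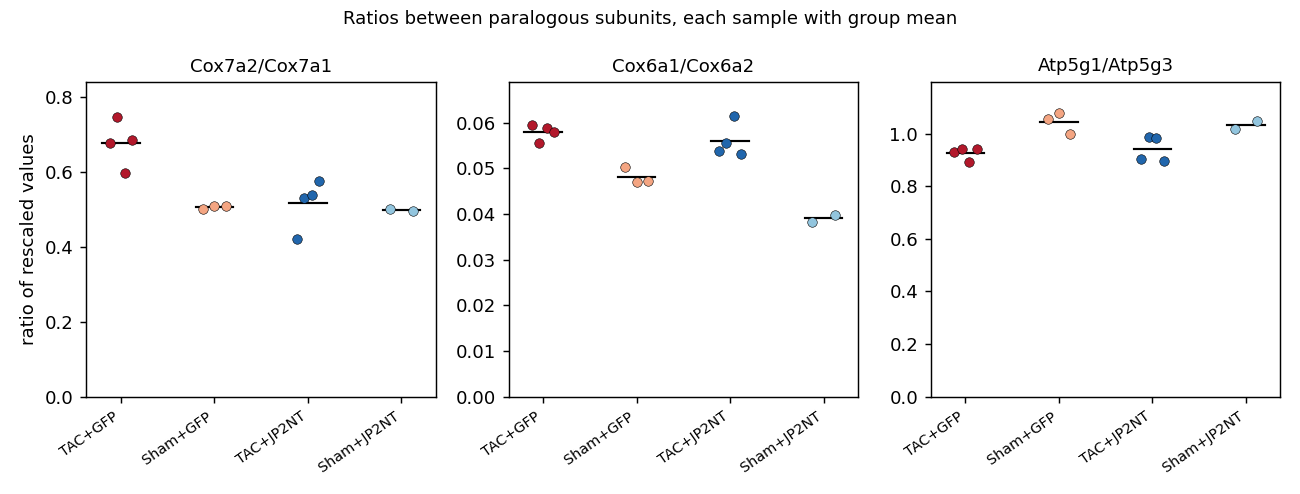
Ratio of rescaled values (y axis, linear from 0) of 3 pairs of paralogs in every sample, with a bar at each group mean. The Cox7a2 to Cox7a1 ratio is 0.597 to 0.746 in TAC+GFP samples and 0.421 to 0.574 in the samples of the other 3 groups, and the Cox6a1 to Cox6a2 ratio is higher in TAC than in sham samples under both vectors.

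Members with longer mRNAs had lower log2 changes after TAC. In TAC+GFP hearts 15 of 18 members with an mRNA over 1500 bases fell, with a median log2 change of -0.41, as did 18 of 34 of over 700 and up to 1500 bases, with a median of -0.28. Of 41 members of up to 700 bases 12 fell, with a median of -0.07. Across 93 members with a length, Spearman's rho between length and log2 change was -0.44 under GFP and -0.37 under JP2NT, and -0.53 and -0.43 for the coding length. The long members include catalytic subunits such as Sdha and Atp5a1, and the short ones small membrane subunits such as Cox7a1 and Uqcr10. Other tested genes moved with length too, in the direction of higher short mRNAs: 302 of up to 700 bases had a median of 0.25, 1832 of over 700 and up to 1500 bases 0.06, and 10497 longer ones -0.02.

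By library, the median of the short non-member genes relative to the Sham+GFP mean was 0.23, 0.20, 0.35 and 0.20 in TAC+GFP replicates 1 to 4, against -0.03 to 0.04 in Sham+GFP samples. It was 0.27, 0.08, -0.01 and 0.21 in TAC+JP2NT replicates 1 to 4, against -0.04 and -0.03 in Sham+JP2NT samples. The part of this shift in the members' values was not tested. In each length class the members' median lay below that of the other genes. With a smooth length trend of each library removed, an alternative chosen after the data were seen, 65 members were lower and 1 higher under GFP, where 25% of all tested genes were lower and 23.8% higher. Under JP2NT 51 members were lower and 0 higher, where 16.6% and 15.5% of all tested genes were. In that setting Cox7a1 was at -0.69 in TAC+GFP against Sham+GFP hearts (limma adjusted p = 0.000137) and at 0.43 in TAC+JP2NT against TAC+GFP hearts (adjusted p = 0.0233), both past the threshold. Of the named genes of complex IV, Cox4i1, Cox4i2, Cox6a1, Cox6b1, Cox6b2, Cox8a and Cox8b also passed it there as lower under GFP. The results of Cox5b, Cox6c, Cox7b and Cox7c in that setting are not given. Under JP2NT Cox4i1, Cox6b1 and Cox8b did. Cox7a2, Ndufa4 and Ndufa4l2 passed it under neither vector, and Cox7a2l stayed higher under GFP.

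**Figure D4:**
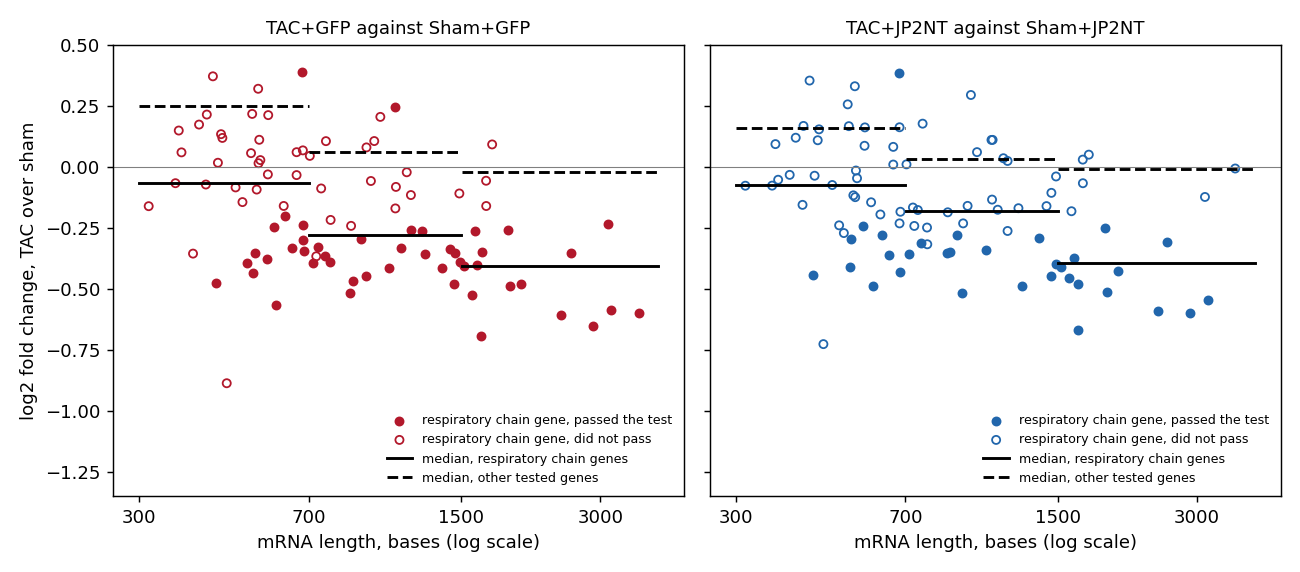
Log2 fold change of TAC over sham (y axis) against mRNA length in bases (x axis, log scale) for members with a length, with filled points for genes that passed the test and bars at the class medians of members (solid) and of other tested genes (dashed). In the panel for GFP the members' medians are -0.07, -0.28 and -0.41 from short to long, below 0.25, 0.06 and -0.02 for the other genes.

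Other genes of the pathway, taken from lists of known roles, moved as follows in TAC+GFP against Sham+GFP hearts. In that comparison 24.8% of all tested genes fell and 23.3% rose. Of 18 genes for electron entry and coenzyme Q synthesis 15 fell and 1 rose (median -0.54), led by Etfb, a subunit of the electron transfer flavoprotein, at -0.81, Dhodh, which makes pyrimidines and feeds coenzyme Q, at -0.80, and Pdss2, which makes the coenzyme Q side chain, at -0.77. Of 41 assembly factors outside the rule 20 fell and 5 rose (median -0.24), with Taco1, a translational activator of a mitochondrially encoded complex IV subunit, at -0.61 and the copper factor Cox19 at 0.75. Of 10 membrane carriers 8 fell and 1 rose, with the phosphate carrier Slc25a3 at -0.67 and the import receptor Tomm20 at 0.77. Of 13 regulators 6 fell and 1 rose, with the coactivator Ppargc1b at -1.13, the nuclear receptor Esrra at -0.56 and the mitochondrial RNA polymerase Polrmt at -0.52, while the coactivator Ppargc1a was at -0.05 and was not called.

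In TAC+JP2NT against Sham+JP2NT hearts the same lists gave 12 lower and 0 higher of 18, 9 and 5 of 41, 6 and 2 of 10, and 3 and 0 of 13, where 15.8% of all tested genes were lower and 16.1% higher. In TAC+JP2NT against TAC+GFP hearts Ppargc1b was higher by 0.64 (limma adjusted p = 0.0269), Taco1 by 0.27 (adjusted p = 0.0445) and Coq10b, a coenzyme Q binding protein, by 0.39 (adjusted p = 0.0253). No other gene of the 4 lists was called in that comparison.

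Markers of the cells in the ventricle moved in both directions after TAC. In TAC+GFP against Sham+GFP hearts 24.8% of all tested genes fell and 23.3% rose. The 12 cardiomyocyte markers, all detected, summed to 764472 to 888560 in TAC+GFP samples, against 1242215 to 1280582 in Sham+GFP samples, and to 838648 to 1045829 in TAC+JP2NT samples, against 1240593 to 1257028 in Sham+JP2NT samples. Of them 6 fell and 1 rose under GFP (median -0.30), with Myh6, the main adult myosin heavy chain, at -1.49, Pln at -0.58, Ttn at 0.56 and Tnnt2, not called, at -0.07. Of 9 fibroblast markers 6 rose and 1 fell (median 0.42), with sums of 31944 to 42568 in TAC+GFP samples, against 27162 to 30392 in Sham+GFP samples. Of 7 pericyte and smooth muscle markers 5 fell and 0 rose (median -0.47), with sums of 9726 to 11868 in TAC+GFP samples, against 15532 to 16558 in Sham+GFP samples. Their sums were 12871 to 15292 in TAC+JP2NT samples, all above those of TAC+GFP, against 16271 to 17172 in Sham+JP2NT samples. Of 8 endothelial markers 3 fell and 1 rose, of 9 macrophage markers 1 fell and 1 rose, and of 4 tested erythroid markers 3 rose (median 1.33), while Hbb-bs was listed at 0 in all but the Sham+JP2NT group. Lymphocyte markers summed to at most 60.9 in any TAC+GFP sample and adipocyte markers to at most 183. The part of cell makeup in the changes of the respiratory chain genes was not tested.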

How the data were processed

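Polyadenylated RNA of mouse ventricles was sequenced in stranded paired-end libraries. FastQC 1.0.0, STAR 2.6.1a and Salmon are named, with build mm10, per the submitters' processing notes. The deposited signal values are gene counts that the authors divided by scale factors, separately in the 7 GFP and the 7 JP2NT libraries; whole reads could not be recovered, so limma replaced the count test that had been planned. Here all samples were rescaled jointly (trimmed mean of M values, 30% M and 5% A trim), 1 was added, and log2 values were fitted with limma-trend 3.58.1 (R 4.3.3), each group having its own mean and all sharing 1 spread. Genes with at least 10 in at least 3 samples (13212 of 24972) were tested and p-values were Benjamini-Hochberg adjusted over all of them, at a threshold of 0.05. Fold changes are on the log2(value + 1) scale and understate those of low genes. The fit was tested on simulated data. Sham+JP2NT replicates 1 and 2 were averaged: their differences had 1.23 times the counting variance, against 1.72 to 7.26 in the other 17 pairs. Ratios of paralogs were compared by exact two-sided permutation tests. Depth was estimated from the step size of the values.

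Genes named are paralog pairs and Cox7a2l, 13 catalytic or redox subunits, up to 2 called members with the largest fall and rise per complex and comparison, members called higher in TAC+GFP, those with the lowest adjusted p where none was called, and up to 3 called genes per other list. The values of 1 gene under this rule are not reported here. Ndufv2, Ndufa2, Ndufa7, Ndufaf1, Sdhd, Uqcr10, Atp5l, Atp5s, Ppargc1a and the single markers were named after their values were seen. The mRNA length is that of the shortest principal transcript. Members and lists were chosen with earlier results of these data known.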

Additional observations from a re-analysis of the deposited data

Results flagged for a closer look

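In groups of 4 samples, 1 sample lay far from the other 3 in 5 of 88 groups of named members, where chance gives about 1 in 20. Cox4i2 was high in TAC+GFP replicate 1, at 105.5 against 86.0 to 88.3 in the other TAC+GFP samples. Cox7a2 was high in TAC+GFP replicate 3, at 5601 against 4396 to 4445. Atp5g3 was low in TAC+GFP replicate 2, at 14144 against 15406 to 15629. Cox7a2l was high in TAC+JP2NT replicate 1, at 4725 against 3782 to 3848 in the other TAC+JP2NT samples. Atp5b was high in TAC+JP2NT replicate 4, at 82520 against 60407 to 62427.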

How the results depend on the processing

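Of 46 named results that passed the test, 34 passed it in all 25 alternative settings; 45 of 1150 values missed the threshold and 0 changed sign. Of 134 named results that did not pass it, 17 passed in at least 1 setting. The number of members lower in TAC+GFP than in Sham+GFP was 38 to 48 with 1 library left out. The number higher there was 4 with a spread per group, 6 with only the compared groups, 1 without a trend, 1 with the length trend removed, and 0 to 4 with 1 library left out. Under JP2NT the lower count was 51 with the length trend removed and 18 to 41 with 1 library left out; the higher count was 0 with no filter, with only the compared groups, without a trend and with the length trend removed, 2 with 14 separate libraries, and 0 to 3 with 1 left out. In TAC+JP2NT against TAC+GFP, 5 members were lower on the values as deposited (Atp5d, Cox5a, Cox6a1, Cox8a and Cox7a2l), a scaling that puts the median of all genes at -0.08 and 9% of all genes lower, and 0 to 1 with 1 library left out. The higher count was 0 with only the compared groups, with TAC replicates 1 and 2 averaged and without a trend, 2 with the length trend removed, and 0 to 1 with 1 left out. The causes were not tested. With the replicate block on 14 libraries the counts were 47 lower and 2 higher under GFP and 39 and 1 under JP2NT. Between vectors after TAC they were 0 and 1. Same-numbered samples correlated at -0.171 to 0.0759 and differently numbered ones at -0.156 to 0.196. These correlations show no pairing by number but cannot exclude one.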
